A study of Mus musculus with 21 samples.

Results

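Cyclins are the regulatory subunits that switch on cyclin-dependent kinases, and each family is known for 1 stretch of the cell cycle. D-type cyclins (Ccnd1, Ccnd2, Ccnd3) pair with Cdk4 and Cdk6 and carry growth signals into G1, E-type cyclins (Ccne1, Ccne2) pair with Cdk2 at the entry into S phase, A-type cyclins (Ccna1, Ccna2) act in S phase and G2, and B-type cyclins (Ccnb1, Ccnb2) pair with Cdk1 in M phase. Oocytes arrested in metaphase II hold cyclin B-Cdk1 activity, and cleavage runs on short cycles that begin with stored maternal mRNA before the embryonic genome is transcribed. The 9 named cyclin genes were taken as the members, and each merged transcript was given to the gene whose exons it overlapped on the same strand. A gene's level is the sum of the TPM of its transcripts, a unit in which each transcript's reads are divided by its length and given as a share of the library. Of the 9 genes, 8 had a merged transcript, with 14 transcripts between them, out of 14888 genes and loci and 22612 merged transcripts in the whole series. Ccna1, the cyclin A known from the male germline, had none and therefore has no value in any library, so its level was not measured.

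The libraries were made from pools of cells, as amplified cDNA, and there were 2 short-read libraries per stage, from separately collected batches, and 1 long-read pool per stage that mixed both batches. Sperm came from the epididymis of males labelled DBA/2J in the sample titles and DBA/2N in the collection protocol. Oocytes were MII oocytes of C57/BL6J females, 3 to 5 weeks old and superovulated, and the 1-cell, 2-cell, 4-cell, 8-cell and blastocyst embryos had a DBA/2J father and a superovulated C57/BL6J mother, so the same hormone treatment preceded every oocyte and embryo sample. Oocytes and embryos were taken at 20 h after hCG, and embryos were then kept in KSOM medium until 24 to 26 h (1-cell), 46 to 48 h (2-cell), 54 to 58 h (4-cell), 68 to 70 h (8-cell) or 94 to 96 h (blastocyst). A batch therefore averages over embryos at different points of the cell cycle. In such pools, fewer cells with a transcript and less of it per cell cannot be told apart.

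The labelled cell types carried their defining markers, with reservations for 2 stages. All 8 oocyte markers (zona and oocyte-factor genes) were present in oocytes with a summed level of 5207 and 16744 TPM, and all 7 blastocyst markers in blastocysts with 10208 and 37379 TPM. The 2-cell libraries stood apart from each other. Their median standard deviation of log2(TPM + 1) over genes was 0.98, against 0.19 to 0.59 in the other oocyte and embryo stages and 0.74 in sperm, and the summed level of the 2-cell markers with a transcript (5 of 6) was 20.3 TPM in replicate 1 and 403 TPM in replicate 2. The same markers were at 46.6 and 39.4 TPM in 1-cell and 17.2 and 20.8 TPM in 4-cell embryos, so 2-cell replicate 1 was below both 1-cell libraries and did not carry the markers of its stage at a raised level. The sperm libraries held all 7 sperm markers (17339 and 21188 TPM) and also all 5 blood cell markers (79246 and 20532 TPM) and 3 of 5 epididymal markers (2045 and 349 TPM). None of the 8 cumulus and granulosa markers had a merged transcript. Between 11416 and 19155 transcripts reached 1 TPM in a library. The TPM values hold no read numbers. The paper lists the read totals of the short-read libraries, and its second 2-cell library had more reads than its first. These totals were not used here, so the part of depth in the differences between libraries was not tested. The only error given is the spread between libraries.

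The main change of the cyclin mRNAs between the 1-cell and 2-cell stage was a rise of Ccne1. B-type and A-type cyclins made up nearly all cyclin mRNA in oocytes and 1-cell embryos, Ccne1 rose steeply at the 2-cell stage together with a small rise of Ccnd1 and a fall of Ccnb2, and the other steps of cleavage held no change of a cyclin gene that passed the test. The test was limma on log2(TPM + 1) in 12 libraries, those of all stages but sperm, with Benjamini-Hochberg adjustment over the 13468 genes tested, and a gene was called at an adjusted p under 0.05. All 8 measured cyclins passed the filter of at least 1 TPM in at least 2 of these libraries. The fit takes 1 spread for all stages, and the 2-cell stage had the largest. In simulated data whose stages differed in spread as these do, this fit called unchanged genes far more often than its threshold allows in both steps at the 2-cell stage, while a fit with the spread weighted by stage did so much less. Where the simulated spread differed by stage in a way of its own for each gene, neither fit kept to the threshold in most steps. With that weighting, the step from 1-cell to 2-cell held a call for Ccne1 (adjusted p = 0.0130) but none for Ccnd1 (adjusted p = 0.0827) or Ccnb2 (adjusted p = 0.145), beside 13.9% of all genes called, so the calls of Ccnd1 and Ccnb2 depend on the spread assumed.

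**Figure D1:**
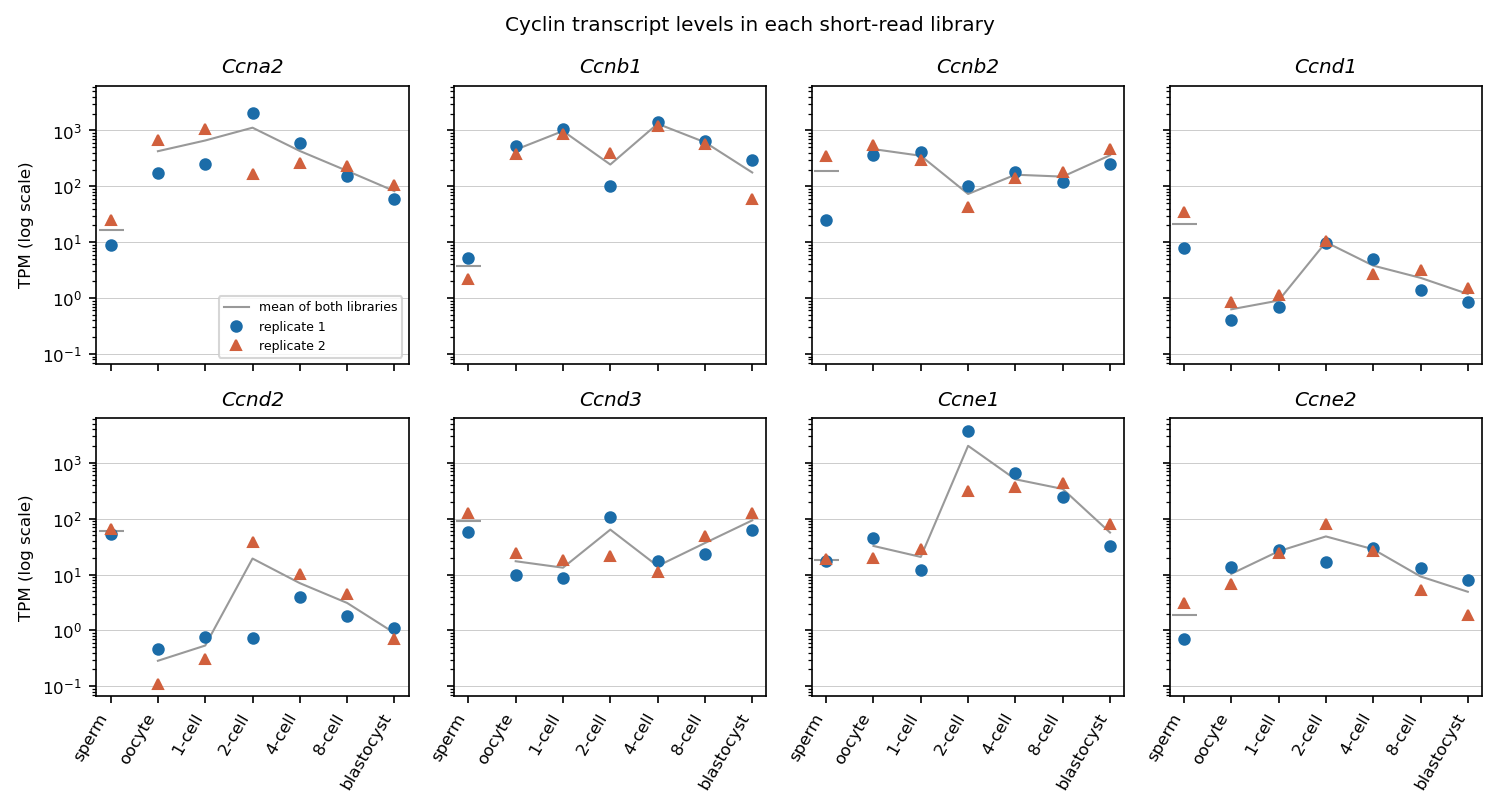
TPM of each cyclin gene with a merged transcript (log axis) in the 14 short-read libraries, by stage. Points are single libraries and the line joins the means of 2 libraries from oocyte to blastocyst, with a bar for sperm; the points of Ccne1 step up at the 2-cell stage, and the 2-cell points of Ccna2, Ccnd2 and Ccne1 lie far from each other.

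Ccnb1 encodes the mitotic cyclin whose rise and destruction mark each M phase, and was one of the most abundant cyclins of early embryos. Its level was 532 and 373 TPM in oocytes, 1080 and 874 in 1-cell, 101 and 390 in 2-cell, 1441 and 1193 in 4-cell, 659 and 571 in 8-cell and 295 and 59.0 in blastocyst libraries. Both 4-cell libraries were above both 1-cell libraries, these above both 8-cell libraries, and these above both oocyte libraries, whereas the 2-cell libraries overlapped with the oocyte and blastocyst libraries. In the 4-cell libraries Ccnb1 lay above 99.4% and 99.2% of the genes and loci of at least 1 TPM. The level differed over the 6 stages (moderated F-test of limma, adjusted p = 0.0340). No single transition passed: from 1-cell to 2-cell the log2 change was -2.28 ± 0.92 (SE, adjusted p = 0.0778), from 2-cell to 4-cell +2.71 ± 0.92 (adjusted p = 0.110) and from 8-cell to blastocyst -2.21 ± 0.92 (adjusted p = 0.310). Both steps around the 2-cell stage rest on replicate 1 of that stage. Without 2-cell replicate 2, they were -3.25 (adjusted p = 0.0268) and +3.68 (adjusted p = 0.0386), and without 2-cell replicate 1 they were -1.31 (adjusted p = 0.318) and +1.75 (adjusted p = 0.250).

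Ccnb2, the second B-type cyclin, was high in oocytes and lowest at the 2-cell stage. Its level was 367 and 560 TPM in oocytes, 415 and 290 in 1-cell, 103 and 43.3 in 2-cell, 181 and 142 in 4-cell, 120 and 178 in 8-cell and 256 and 463 in blastocyst libraries. Every oocyte and 1-cell library was above every 2-cell, 4-cell and 8-cell library, and the 2-cell libraries were below all others from oocyte to blastocyst. From 1-cell to 2-cell Ccnb2 fell by 2.36 ± 0.74 on the log2 scale (adjusted p = 0.0300), where 4.57% of all genes tested were called lower. This call was close to the threshold. The adjusted p was 0.133 and 0.0754 without 1-cell replicate 1 or 2, 0.123 without 2-cell replicate 2, 0.0596 and 0.0594 without 4-cell replicate 1 or 2, 0.0546 without either 8-cell replicate, and 0.145 when the spread was weighted by stage. The fitted change from 8-cell to blastocyst, +1.23 ± 0.74, did not pass (adjusted p = 0.556).

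Since both B-type cyclins can pair with Cdk1, their ratio within a library was computed, which does not depend on how that library was scaled. Ccnb1 was 1.45 and 0.667 times Ccnb2 in oocytes, 2.60 and 3.01 times in 1-cell, 0.987 and 9.01 times in 2-cell, 7.97 and 8.39 times in 4-cell, 5.48 and 3.21 times in 8-cell and 1.15 and 0.127 times in blastocyst libraries. The highest value was that of 2-cell replicate 2, the 4-cell replicates were next and close to each other, and in oocytes, 2-cell embryos and blastocysts the replicates lay on either side of 1. Quantified over the transcripts of each stage alone, the ratio was 1.66 and 13.3 in 2-cell and 10.2 and 11 in 4-cell libraries.

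The promoters of the 2 B-type genes are shown because cell cycle genes are known to share CCAAT boxes and, in late-cycle genes, CHR elements. The RefSeq windows on GRCm38.p6 run from 250 bases before to 50 bases after the annotated start, on the minus strand at chr13:100786437-100786736 for Ccnb1 and chr9:70421505-70421804 for Ccnb2. Capitals mark the CCAAT box, the CHR word TTTGAA, the GC box GGGCGG and any of 4 E2F-type words, which are TTCCCGC as the first, TTGGCGC as the second, TTGCCGC as the third and TTCGCGC as the last, on either strand.
Ccnb1: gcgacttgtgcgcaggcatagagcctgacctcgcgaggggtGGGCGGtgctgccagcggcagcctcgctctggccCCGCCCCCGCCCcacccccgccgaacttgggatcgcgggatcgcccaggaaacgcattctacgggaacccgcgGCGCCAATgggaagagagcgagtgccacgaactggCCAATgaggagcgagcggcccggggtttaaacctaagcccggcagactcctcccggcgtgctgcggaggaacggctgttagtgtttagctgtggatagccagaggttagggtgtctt
Ccnb2: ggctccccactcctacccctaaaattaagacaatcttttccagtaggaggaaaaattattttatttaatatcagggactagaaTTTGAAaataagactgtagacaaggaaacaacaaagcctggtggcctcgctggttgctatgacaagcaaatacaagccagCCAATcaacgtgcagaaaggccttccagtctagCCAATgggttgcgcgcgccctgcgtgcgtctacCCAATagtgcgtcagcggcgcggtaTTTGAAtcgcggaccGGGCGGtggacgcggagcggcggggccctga
The Ccnb2 window held CCAAT at -87, -54 and -21 and TTTGAA at -167 and +5 from the start, and the Ccnb1 window held CCAAT at -99 and -67, GGGCGG at 3 places and TTGGCGC on the opposite strand at -102, overlapping the first CCAAT. Of 32851 such windows of the genome, 37.4% held CCAAT, 17.9% TTTGAA, 35.7% GGGCGG and 9.57% at least 1 of the 4 E2F-type words. The starts of the long-read models lay at these windows, for Ccnb1 in 30 of 34 models between -120 and +12 and for Ccnb2 in all 11 models between -58 and +7. Only these exact words were searched, so other forms of a CHR element or an E2F site were not counted. A match is a run of letters, and binding was not measured.

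Ccna2, the cyclin A of somatic and embryonic cells, was among the abundant cyclins and varied widely between replicates. Its level was 175 and 676 TPM in oocytes, 251 and 1072 in 1-cell, 2077 and 164 in 2-cell, 597 and 261 in 4-cell, 152 and 226 in 8-cell and 58.4 and 106 in blastocyst libraries. The 2-cell replicates differed by 12.7 times, the first being the highest value of the gene, and the oocyte and 1-cell replicates by 3.86 and 4.28 times. Both 8-cell libraries were above both blastocyst libraries, and from oocyte to blastocyst all other neighbours in the order of mean levels overlapped. None of the 5 transitions passed, with log2 changes between -1.23 and +0.59 and standard errors of 1.17. In simulated data with 1 spread for all stages, the fit recovered 0 of 200 genes changed by 2 on the log2 scale from 1-cell to 2-cell. Of 200 genes changed by 4 it recovered 120, so even large changes can be missed. Of the 2889 bases of the leading Ccna2 transcript, 384 (13.3%) lie under a transcript of Exosc9 on the opposite strand, and tagmented cDNA reads do not keep the strand, so reads of that stretch cannot be assigned to either gene.

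Ccne1, the E-type cyclin that activates Cdk2 at the start of S phase, showed the largest fitted change of a cyclin gene in the 5 transitions from oocyte to blastocyst. Its level was 45.0 and 19.9 TPM in oocytes and 12.3 and 29.1 in 1-cell embryos, then 3709 and 312 in 2-cell, 648 and 364 in 4-cell, 245 and 436 in 8-cell and 32.5 and 80.4 in blastocyst libraries. Every 2-cell, 4-cell and 8-cell library was above every other oocyte or embryo library, although the 2-cell replicates differed by 11.9 times. From 1-cell to 2-cell Ccne1 rose by 5.75 ± 1.05 on the log2 scale (adjusted p = 0.00159), against a median of +0.84 over all genes tested, of which 25.3% were called higher. The rise was 3.97 without 2-cell replicate 1 (adjusted p = 0.00698) and 7.54 without 2-cell replicate 2 (adjusted p = 0.000359). The call held with each library left out in turn and with the spread weighted by stage, and was lost when only the 4 libraries of that transition were fitted (adjusted p = 0.0769). The fitted fall from 8-cell to blastocyst, -2.65 ± 1.05, did not pass (adjusted p = 0.275), although the libraries of these stages did not overlap. In the 2-cell libraries Ccne1 lay above 99.9% and 95.9% of the genes and loci of at least 1 TPM, and in 1-cell embryos above 43.8% and 67.1%.

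The rise of Ccne1 was also seen in the long reads and against Ccna2. The long reads were made from the same amplified cDNA as the short reads, and the ratio reuses the same TPM. Neither is therefore an independent measure. The long-read pools held no Ccne1 model in sperm, oocytes or 1-cell embryos, and 3, 2, 1 and 1 models from the 2-cell stage to the blastocyst. A pool without a model shows only that no such transcript passed the authors' filters there. Against Ccna2 in the same library, Ccne1 was 0.0489 and 0.0271 times as high at the 1-cell stage and 1.79 and 1.91 times as high at the 2-cell stage, and over the transcripts of the 2-cell stage alone it was 1.21 and 2.4 times as high there. At 4-cell the ratio was 1.08 and 1.40, at 8-cell 1.61 and 1.92 and in blastocysts 0.558 and 0.759. The RefSeq window of Ccne1 (minus strand, chr7:38107441-38107740) is printed because the gene is a textbook E2F target and the window can be set beside those of the B-type cyclins, with the same words in capitals.
Ccne1: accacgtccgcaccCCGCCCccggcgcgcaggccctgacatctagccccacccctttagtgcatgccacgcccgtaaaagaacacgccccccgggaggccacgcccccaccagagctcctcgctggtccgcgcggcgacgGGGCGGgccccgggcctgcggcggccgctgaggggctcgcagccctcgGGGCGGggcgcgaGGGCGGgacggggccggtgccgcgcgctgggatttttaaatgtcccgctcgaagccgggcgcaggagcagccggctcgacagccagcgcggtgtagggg
It held GGGCGG at 4 places and none of the other words on either strand. Only exact words were searched, so this does not show that the window lacks an E2F site. Of the 7 long-read models, 6 started in this window, between -56 and +13.

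Ccne1 was measured as 2 isoforms, which differ by exon 4 of Ccne1-201, at chr7:38106279-38106347 on the minus strand of mm10. This coding exon has 69 bases, or 23 codons, so its omission keeps the reading frame. The exon is shown in capitals, between 15 bases of each neighbouring exon from the GENCODE vM21 transcript, because it is the whole difference in the open reading frame.
Ccne1 exon 4: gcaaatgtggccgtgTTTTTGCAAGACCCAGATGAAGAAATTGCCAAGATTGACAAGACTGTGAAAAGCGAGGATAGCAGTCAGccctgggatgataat
The isoform without the exon was at 0.534 and 1.18 TPM in oocytes, 3.38 and 0 in 1-cell, 328 and 84.4 in 2-cell, 32.2 and 47.1 in 4-cell, 0.913 and 5.09 in 8-cell and 0 and 1.81 in blastocyst libraries. It made up 8.83% and 27.0% of Ccne1 in 2-cell, 4.98% and 12.9% in 4-cell and 0.373% and 1.17% in 8-cell embryos, so the 8-cell libraries were below all 2-cell and 4-cell libraries. Its share in 1-cell embryos, 27.6% and 0%, rests on few TPM. From 1-cell to 2-cell both isoforms rose, by 6.32 ± 0.95 without the exon (limma over 20250 transcripts, adjusted p = 0.00101) and by 5.67 ± 1.15 with it (adjusted p = 0.00398).

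From the 4-cell to the 8-cell stage the values of the Ccne1 isoforms moved apart without passing the test. The isoform without exon 4 changed by -3.55 ± 0.95 on the log2 scale (adjusted p = 0.0699) and the isoform with it by -0.45 ± 1.15 (adjusted p = 0.920), and the log2 ratio of the second to the first changed by +3.10 ± 1.21 (adjusted p = 0.381 over 4025 genes). Weighting the spread by stage gives more weight to the close 4-cell and 8-cell replicates. In this step it called 400 of 4025 ratios and 6269 of 20250 transcripts, against 8 and 633 in the main fit. Among these calls were the ratio of Ccne1 (adjusted p = 0.0422) and the fall of its isoform without exon 4 (adjusted p = 0.000441). Without 2-cell replicate 1 or 2 that fall also passed (adjusted p = 0.0238 and 0.0255), and without 4-cell replicate 2 its adjusted p was 0.425.

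**Figure D2:**
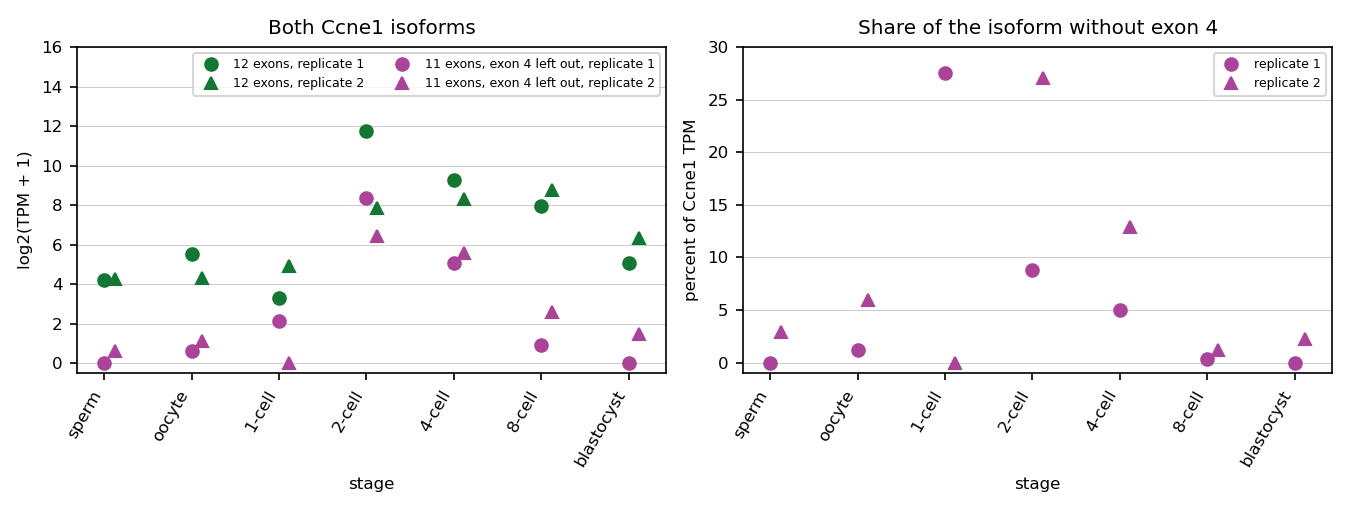
The Ccne1 isoforms with and without exon 4 on the log2(TPM + 1) scale (left) and the percent of Ccne1 TPM without the exon (right), by stage. Points are single libraries; the share without the exon is at most 1.17% in the 8-cell libraries and at least 4.98% in the 2-cell and 4-cell libraries.

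Ccne2, the second E-type cyclin, was low beside Ccne1 from the 4-cell stage on, and its step from 1-cell to 2-cell did not pass the test. Its level was 13.7 and 6.84 TPM in oocytes, 28.0 and 24.2 in 1-cell, 16.8 and 79.4 in 2-cell, 30.2 and 26.5 in 4-cell, 13.3 and 5.20 in 8-cell and 7.91 and 1.92 in blastocyst libraries. Its change from 1-cell to 2-cell was +0.48 ± 0.86 (adjusted p = 0.706). On the merged transcript, both 1-cell and both 4-cell libraries were above every oocyte, 8-cell and blastocyst library. The level differed over the 6 stages (F-test, adjusted p = 0.0457), close to the threshold. Over the models of each stage alone, Ccne2 was at 151 and 34.6 TPM in oocytes, 91.5 and 72.6 in 1-cell and 21.2 and 88.1 in 2-cell embryos. From the 4-cell stage on there was no Ccne2 model. The order of the stages and the ratios that follow therefore depend on the models used. Ccne1 was 0.438 and 1.20 times as high as Ccne2 in 1-cell embryos, 221 and 3.93 times in 2-cell and 21.4 and 13.8 times in 4-cell embryos, and the 2-cell replicates were far apart in this ratio. Long-read models of Ccne2 reached the last exon of the gene only in oocytes and 2-cell embryos, and of the 4 models in 1-cell embryos none ended past base 11197229 of chromosome 4.

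Among the D-type cyclins, which link growth factor signals to the cycle, Ccnd1 was low throughout. Its level was 0.401 and 0.859 TPM in oocytes, 0.689 and 1.12 in 1-cell, 9.53 and 10.5 in 2-cell, 4.97 and 2.66 in 4-cell, 1.40 and 3.20 in 8-cell and 0.836 and 1.54 in blastocyst libraries. The 2-cell replicates were the closest of any cyclin at that stage, and were above all other oocyte and embryo libraries. Ccnd1 rose by 2.54 ± 0.57 from 1-cell to 2-cell on the log2(TPM + 1) scale, which understates changes at this level (adjusted p = 0.00545). After quantile normalization, which moved the median change of all genes from +0.84 to -0.11, the rise was 1.01 and no longer passed (adjusted p = 0.242), and with the spread weighted by stage the adjusted p was 0.0827. The long reads held a Ccnd1 model only in sperm, and its transcript in embryos was quantified on that model.

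The change of Ccnd2 depended on which 2-cell library was read. Its level was 0.461 and 0.111 TPM in oocytes, 0.763 and 0.310 in 1-cell, 0.719 and 37.9 in 2-cell, 3.97 and 10.1 in 4-cell, 1.78 and 4.42 in 8-cell and 1.10 and 0.699 in blastocyst libraries. The 2-cell replicates differed by 52.8 times, the first at the level of 1-cell embryos and the second above every other oocyte and embryo library. The change from 1-cell to 2-cell was +2.43 ± 1.06 (adjusted p = 0.102) with both, +4.68 (adjusted p = 0.000333) without 2-cell replicate 1 and +0.18 (adjusted p = 0.873) without 2-cell replicate 2. In the other direction, the step from 2-cell to 4-cell was -2.39 (adjusted p = 0.0339) without 2-cell replicate 1 and +2.11 (adjusted p = 0.0509) without 2-cell replicate 2. A single-exon transcript of 472 bases lay near the end of the gene, at chr6:127125777-127126248. It took between 0% and 64.7% of Ccnd2 in a library, and the spliced transcript took the rest. The long reads held Ccnd2 models only in sperm, so in oocytes and embryos both transcripts were quantified on models from that pool. Blood cell markers were at 41.1 TPM in 2-cell replicate 1 and 476 TPM in replicate 2, and oocyte markers at 116 and 1327 TPM, and their part in this difference was not tested.

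Ccnd3 was the most abundant D-type cyclin in every oocyte and embryo library but 2-cell replicate 2. Its level was 9.90 and 24.7 TPM in oocytes, 8.59 and 17.9 in 1-cell, 106 and 21.5 in 2-cell, 17.4 and 11 in 4-cell, 23.4 and 49.9 in 8-cell and 61.9 and 125 in blastocyst libraries. Both blastocyst libraries were above every oocyte, 1-cell, 4-cell and 8-cell library. No transition passed, but across the whole interval Ccnd3 was higher in blastocysts than in oocytes by 2.41 ± 0.87 on the log2 scale (adjusted p = 0.0355), the only cyclin called in that comparison, in which 46.4% of all genes were called, 29.8% higher. The call rested on several libraries, with an adjusted p of 0.192 without oocyte replicate 1, 0.0532 and 0.0533 without 4-cell replicate 1 or 2, 0.0583 and 0.172 without blastocyst replicate 1 or 2, and 0.172 after quantile normalization. The spliced long-read models of Ccnd3, in sperm and blastocysts, both began at +20 to +24 from the downstream of the 2 RefSeq starts and none at the upstream one, and the 2-cell and 8-cell models covered only the end of the gene.

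**Figure D3:**
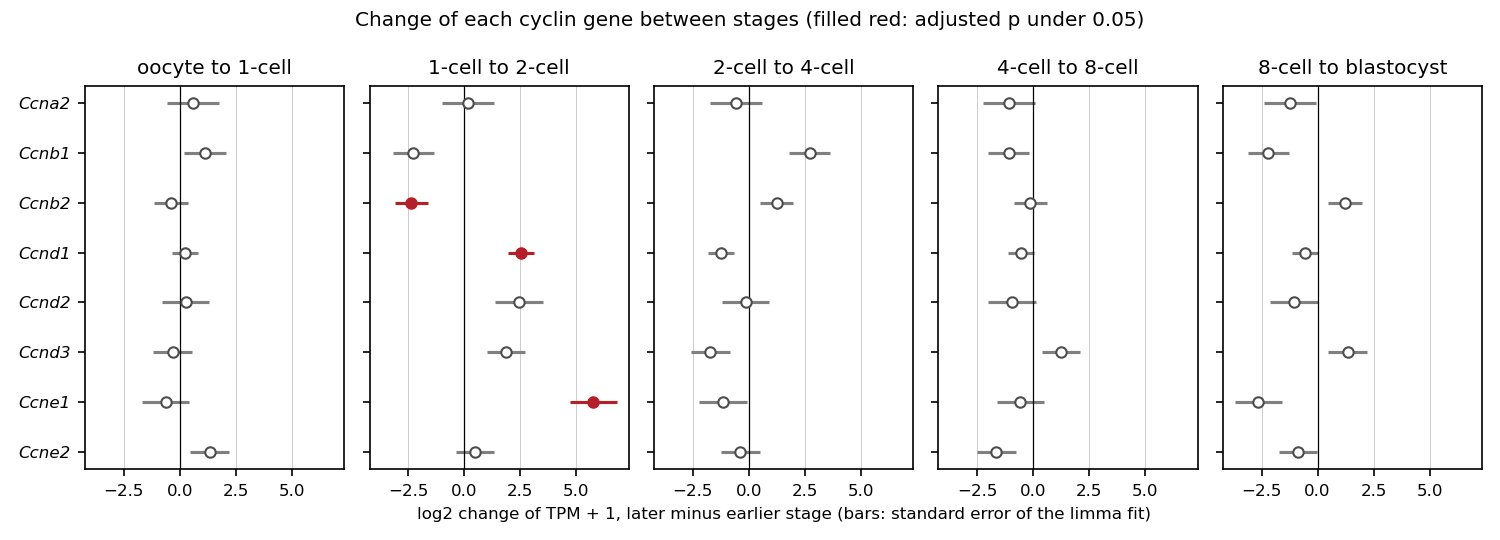
Fitted log2 change of TPM + 1 of the 8 measured cyclins in the 5 transitions from oocyte to blastocyst, later minus earlier stage, with the standard error of the limma fit as bars. Filled red points passed at an adjusted p under 0.05, and these are Ccne1, Ccnd1 and Ccnb2 from 1-cell to 2-cell.

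Counted over the members, 3 of 8 cyclin genes were called from 1-cell to 2-cell, 2 higher and 1 lower, where 29.9% of all genes tested were called. In the 4 other transitions limma called 0 of 8. Of all genes, 2.9% were called in the step from the oocyte, 2.64% in that from the 2-cell stage, 3.76% in that from the 4-cell stage and 2% in that into the blastocyst, so the members stood near the background. At an unadjusted p under 0.05 there were 2 members in the step from the 2-cell stage (Ccnb1 and Ccnd1) beside 22.8% of all genes, 2 in that into the blastocyst (Ccnb1 and Ccne1) beside 13.1%, and 0 in those from the oocyte and the 4-cell stage beside 9.7% and 15.9%. Over the 6 stages together, 5 of 8 differed by the F-test (Ccnb1, Ccnb2, Ccnd1, Ccne1 and Ccne2), beside 67.9% of all genes. Ccnd1 and Ccne1 passed with each library left out in turn. Ccnb1 did not pass without either replicate of the 1-cell, 4-cell or 8-cell stage or blastocyst replicate 2 (adjusted p between 0.0598 and 0.104), nor Ccnb2 without oocyte replicate 2, 1-cell replicate 1, 2-cell replicate 2 or either 4-cell or 8-cell replicate (between 0.0519 and 0.0902), nor Ccne2 without any 1 of the oocyte, 1-cell, 4-cell or 8-cell libraries or blastocyst replicate 2 (between 0.0528 and 0.145). Without 2-cell replicate 2, Ccna2 (adjusted p = 0.0292), Ccnd2 (0.00534) and Ccnd3 (0.0119) passed as well, and without 2-cell replicate 1 so did Ccnd2 (0.000249) and Ccnd3 (0.0289). Of the 13 cyclin transcripts that passed the filter, 6 were called from 1-cell to 2-cell, beside 28% of all transcripts. Both Ccne1 isoforms and the Ccnd1 transcript were higher, and the leading Ccnb2 transcript and both minor Ccnb1 transcripts lower. With the spread weighted by stage the isoforms of Ccne1 passed (adjusted p = 0.0159 without exon 4 and 0.0258 with it) and the other 4 did not (between 0.0893 and 0.183). Without 1-cell replicate 1 the 2 Ccne1 isoforms were left, and 3 transcripts, these and that of Ccnd1, without 1-cell replicate 2 or any 4-cell or 8-cell library.

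The leading transcript of each cyclin carried nearly all of its TPM, apart from Ccne1 and Ccnd2. The Ccnb1 transcript with the exon chain of Ccnb1-201 held 94.7% to 97.4% of Ccnb1 from oocyte to blastocyst. The exon chain of Ccnb1-202, which lacks exon 4 (chr13:100783465-100783647, minus strand, 183 coding bases or 61 codons), held 1.58% to 3.84%, so this isoform followed the gene without a stage of its own. Exon 4 of Ccnb1 is printed in capitals with 15 bases on each side, beside that of Ccne1 above, since both exons are coding and both leave the frame intact when omitted.
Ccnb1 exon 4: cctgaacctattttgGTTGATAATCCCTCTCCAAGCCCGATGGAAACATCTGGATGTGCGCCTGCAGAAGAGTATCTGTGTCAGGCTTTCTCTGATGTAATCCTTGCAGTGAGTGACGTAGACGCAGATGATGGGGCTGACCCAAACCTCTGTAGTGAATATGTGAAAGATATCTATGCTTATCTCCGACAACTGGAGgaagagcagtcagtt
The leading transcripts of Ccna2 and Ccnb2 held at least 99.8% and 99% of their gene in every oocyte and embryo library. The log2 ratio of the leading transcript to the others could be tested in 4 cyclin genes (Ccnb1, Ccnb2, Ccnd2 and Ccne1), and limma called 0 of them in the 5 transitions, beside 13.5% of the genes tested from 1-cell to 2-cell, and 0.0497%, 0%, 0.199% and 0.248% in the steps from the oocyte, the 2-cell, the 4-cell and the 8-cell stage. At an unadjusted p under 0.05 there were Ccnb2 from 1-cell to 2-cell (-1.59 ± 0.57, adjusted p = 0.0981), beside 29.1% of the genes tested, and Ccne1 from 4-cell to 8-cell, beside 10.9%. In the steps from the oocyte, the 2-cell and the 8-cell stage there were 0 of 4, beside 8.3%, 17% and 9.54%.

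Long reads also gave the 3′ ends of the cyclin mRNAs. In oocytes, the length of the poly(A) tail and elements in the 3′ UTR are known to govern when B-type cyclin mRNAs are translated, and the site of cleavage sets which elements a message carries. Long-read ends within 30 bases of each other were joined, which gave 5 ends for Ccnb1 and 2 each for Ccna2 and Ccnb2, all in the last exon on the minus strand. The windows near the ends are shown, from the GENCODE vM21 transcripts on mm10, with the poly(A) signal AATAAA or ATTAAA in capitals, because the signals differ between them.
Ccnb1, 829 bases before the last end: AATAAAggttgtgacttctcattttacata
Ccnb1, 468 bases before the last end: ataggatgttcaaaATTAAAggtgtgtttt
Ccnb1, last end: AATAAAatttattggtggaaagctttcaca
Ccnb2, 103 bases before the last end: gaaaAATAAAgctattgattttcttatact
Ccnb2, last end: tattgaaggaaAATAAAgctattgatctac
Ccna2, 1116 bases before the last end: atattgagAATAAActgatttggaaatctt
Ccna2, last end: gtgtaAATAAAgcatgcaaattaacccttt
The windows are at chr13:100779563-100779592, chr13:100779200-100779229 and chr13:100778735-100778764 for Ccnb1, at chr9:70407788-70407817 and chr9:70407692-70407721 for Ccnb2, and at chr3:36565978-36566007 and chr3:36564866-36564895 for Ccna2. The signals began between 16 and 33 bases before the ends. Of the other 2 Ccnb1 ends, the one 729 bases before the last had ATTAAA 35 bases before it and the one 660 bases before had neither signal within 40 bases.

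For the use of these ends, the TPM that the authors quantified over the models of each stage was summed by end. Each stage has its own set of models, so an end without a model in a stage could receive no TPM there, and the shares are a description without a test. In oocytes the last end of Ccnb1 held 54.3% and 78.5% of its TPM and the end 729 bases upstream 45.7% and 10.6%. In 1-cell embryos the last end held 67.9% and 61.2% and the end 660 bases upstream 32.1% and 38.8%. In 2-cell embryos the end 829 bases upstream held 84.9% and 80.3%, and in 8-cell embryos 72.2% and 82.2%, where the last end held 18.2% and 10.8%. The 4-cell libraries had 5.47% and 6.76% at the end 829 bases upstream and 21.7% and 25.0% at the end 729 bases upstream. They had 31.6% and 34.0% at the end 468 bases upstream and 41.3% and 34.3% at the last end. The ends 729 and 660 bases upstream had no model in 2-cell or 8-cell embryos. The contrast between stages at the end 829 bases upstream can therefore show the model set. In blastocysts the end 829 bases upstream held 33.5% and 43.3%. Oocytes had no model at the end 829 bases upstream, and the 1-cell models there were at 0 TPM in both libraries.

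**Figure D4:**
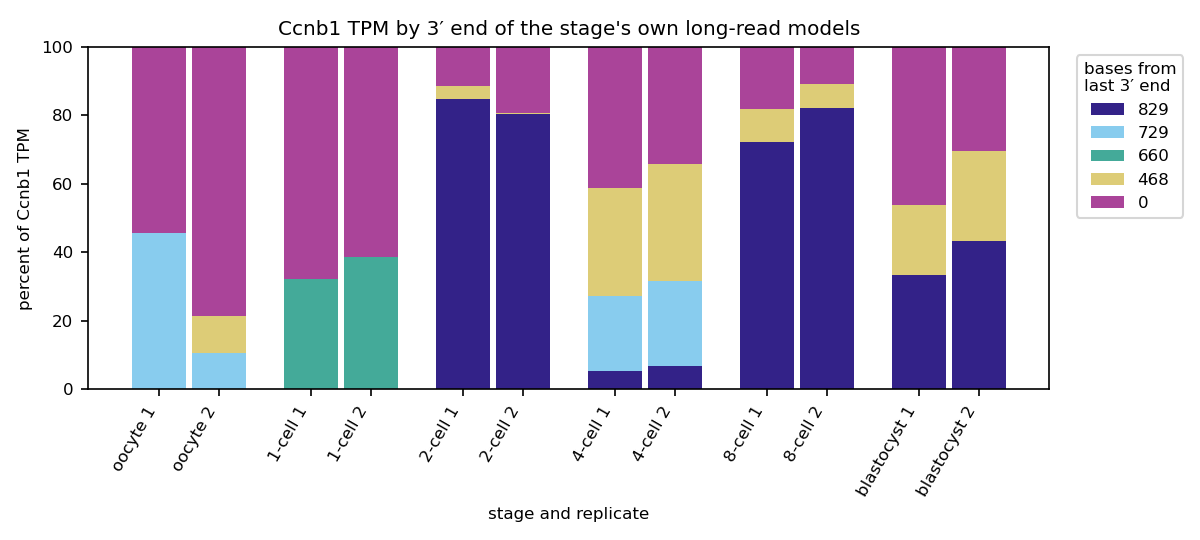
Percent of Ccnb1 TPM by the 3′ end of the transcript models of each stage, for the 12 oocyte and embryo libraries by stage and replicate. Colours give the number of bases from the last end. The end 829 bases upstream holds 80.3% to 84.9% in the 2-cell libraries and at most 6.76% in the oocyte, 1-cell and 4-cell libraries. In these last stages the end 729 or 660 bases upstream, without a model in 2-cell and 8-cell embryos, holds part of the TPM.

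Ccnb2 and Ccna2 had fewer ends. The upstream end of Ccnb2, 103 bases before the last, had no model before the 2-cell stage, where it held 26.7% and 15.5%, then 0.373% and 0.415% in 4-cell, 53.7% and 62.1% in 8-cell and 17.0% and 38.4% in blastocyst libraries. The share of this Ccnb2 end, like that of the Ccnb1 end 829 bases upstream, was thus higher in 2-cell and 8-cell libraries than in 4-cell libraries. For Ccnb1 this leaves out the end 729 bases upstream, which had a model in 4-cell but not in 2-cell or 8-cell embryos. The upstream end of Ccna2 held 76.9% and 81.5% in oocytes and 54.4% to 92.9% from the 4-cell stage on. In 2-cell embryos all Ccna2 models ended there, and in 1-cell embryos the only model ended at the last end.

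Summed by family, the make-up of cyclin mRNA followed the members that have been described. B-type cyclins held 50.4% to 83.2% of the summed cyclin TPM in oocyte and 1-cell libraries, A-type 14% to 46.4%, E-type 1.61% to 5.14% and D-type 0.559% to 1.55%. In 2-cell libraries E-type cyclins held 60.8% and 37.0%, B-type 3.33% and 40.9%, and A-type 33.9% and 15.5%, within the range of oocyte and 1-cell libraries. E-type cyclins held 23.2% and 19.4% in 4-cell, 21.2% and 29.9% in 8-cell and 5.67% and 9.83% in blastocyst libraries. D-type cyclins reached 8.95% and 15.1% in blastocysts, above every earlier embryo library, and most of this was Ccnd3. The summed level itself was 1144 and 1661 TPM in oocytes, 6124 and 1058 in 2-cell embryos and 714 and 837 in blastocysts.

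**Figure D5:**
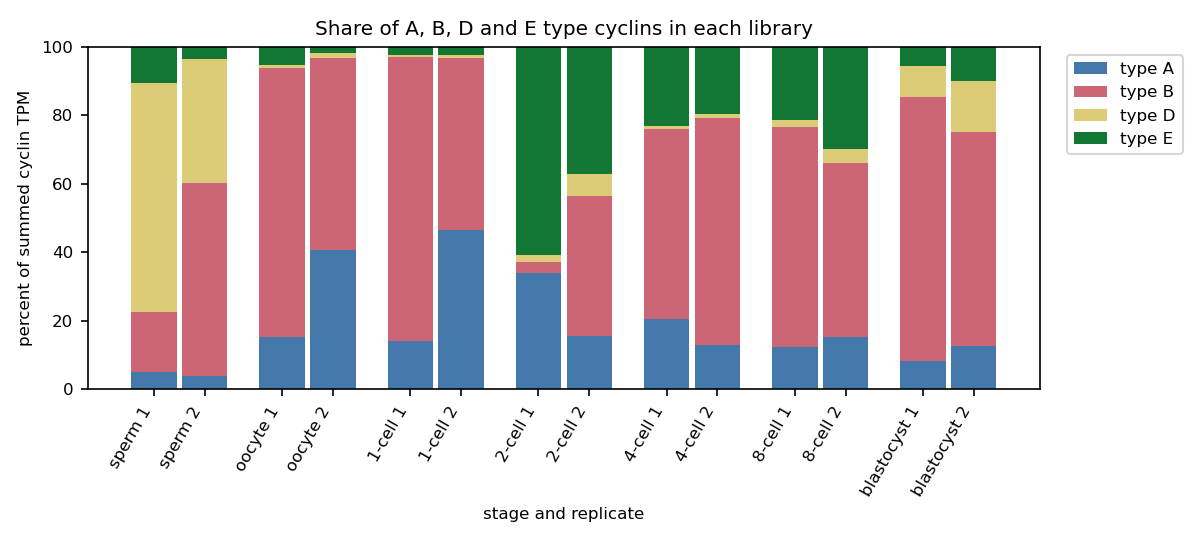
Percent of the summed cyclin TPM held by A, B, D and E type cyclins in each of the 14 libraries, by stage and replicate. E-type cyclins hold 60.8% and 37.0% at 2-cell, after 2.24% and 2.31% at 1-cell.

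The sperm libraries, which also held blood cell and epididymal markers, were set against those of oocytes. In a fit of all 14 libraries over 14400 genes, 5 of 8 cyclins differed between sperm and oocyte, near the share of all genes called (51%). Ccnb1 was 5.29 and 2.23 TPM in sperm and lower than in oocytes by a log2 change of -6.63 ± 0.93 (adjusted p = 5.3e-05), and Ccna2 was 9 and 24.6 TPM and changed by -4.43 ± 1.16 (adjusted p = 0.00525). The D-type cyclins were higher in sperm: Ccnd2 was 52.2 and 66.6 TPM (+5.56 ± 1.06, adjusted p = 0.000562), Ccnd1 7.79 and 34.4 TPM (+3.45 ± 0.72, adjusted p = 0.00116) and Ccnd3 57.3 and 127 TPM (+2.37 ± 0.88, adjusted p = 0.0355). Ccnb2 was 25.0 and 352 TPM, replicates that differed by 14 times (-2.25 ± 1.04, adjusted p = 0.0832), Ccne1 17.7 and 19.0 TPM and Ccne2 0.705 and 3.10 TPM. The call of Ccna2 was lost without sperm replicate 1 (adjusted p = 0.0785) or oocyte replicate 2 (adjusted p = 0.0606), and that of Ccnd3 without sperm replicate 2 (adjusted p = 0.195), oocyte replicate 1 (adjusted p = 0.200) or either 4-cell replicate (adjusted p = 0.0516 and 0.0518). The call of Ccnd3 was also lost after quantile normalization, with the spread weighted by stage and on the 4 libraries of the comparison, and that of Ccnd1 on these 4 libraries. The blood cell markers stood at 79246 and 20532 TPM in sperm against 24.4 and 2.96 TPM in oocytes, the epididymal markers at 2045 and 349 against 0.744 and 0.0567 TPM, and their part in the levels of the D-type cyclins was not tested.

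The partners and regulators of the cyclins were examined in lists of 71 genes, of which 58 were tested. From 1-cell to 2-cell 13 rose and 1 fell, where 25.3% of all genes were called higher and 4.57% lower, so the lists were near or below the background, with a median log2 change of +0.29 against +0.84 over all genes, and the other transitions held 2 calls. Of 9 kinases and subunits, 8 were tested and 4 rose, while Cdk6 had no merged transcript. Cdk4, the partner of D-type cyclins, was 3.64 and 2.39 TPM in 1-cell and 102 and 19.2 TPM in 2-cell embryos (+3.52 ± 0.78, adjusted p = 0.00497), and Cdk2, the partner of E-type cyclins, 7.22 and 2.87 and then 31.3 and 122 TPM (+3.49 ± 0.76, adjusted p = 0.00463). Cdk1, the partner of B-type cyclins, rose by 3.13 ± 0.89 (adjusted p = 0.0182), from 0.3 and 0.704 TPM in oocytes over 27.5 and 7.94 in 1-cell to 83.6 and 230 in 2-cell and 499 and 443 in 4-cell libraries. It is named with Ccnh (+2.03), Cdkn2d and Cdkn2b after their values were seen. In the oocyte libraries Cdk1 was thus measured at under 1 TPM while Ccnb1 was at 532 and 373 TPM. The paper names transcripts without poly(A) as a limit of its long-read strategy, and both read types came from the same amplified cDNA. Whether this bears on Cdk1 was not tested, and a low TPM does not show that the mRNA was absent. Cdk1 did not pass without 1-cell replicate 2 (adjusted p = 0.161) or 2-cell replicate 2 (adjusted p = 0.0946), Cdk2 without 1-cell replicate 2 (adjusted p = 0.0540), and Ccnh without 2-cell replicate 1 (adjusted p = 0.172) or any 1-cell, 4-cell or 8-cell library.

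All 4 inhibitors that could be tested, of 7 listed, rose from 1-cell to 2-cell, a step in which 25.3% of all genes were called higher. Cdkn1c was 14.5 and 26.5 TPM in 1-cell and 893 and 137 in 2-cell libraries (+4.09 ± 0.90, adjusted p = 0.00497), and Cdkn1a, which encodes p21, 16.4 and 1.78 and then 22.8 and 371 TPM (+3.76 ± 1.20, adjusted p = 0.0316). Cdkn2d rose by 3.48 and Cdkn2b by 2.91. Without 2-cell replicate 2 or 1-cell replicate 2 the rise of Cdkn1a did not pass (adjusted p = 0.260 and 0.263), nor that of Cdkn2d without 1-cell replicate 2 (adjusted p = 0.0596). Of the enzymes that add or remove the inhibitory phosphate of Cdk1, 4 of 6 were tested and 2 rose, the phosphatase Cdc25c by 4.57 ± 0.92 (adjusted p = 0.00283) and the kinase Wee1 by 2.25 ± 0.62 (adjusted p = 0.0153). Wee1 did not pass without 1-cell replicate 1 or 2 (adjusted p = 0.107 and 0.0529).

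Of 20 genes of cyclin turnover 19 were tested. Fbxo31, an F-box protein, rose by 3.86 ± 1.00 (adjusted p = 0.0120), and Fbxo43, the inhibitor of the anaphase-promoting complex also called Emi2 that holds the metaphase II arrest, fell by 3.03 ± 0.85 (adjusted p = 0.0177), from 102 and 102 TPM in 1-cell to 3.85 and 32.2 in 2-cell embryos. Without 1-cell replicate 1 neither passed (adjusted p = 0.0858 and 0.0810), nor either without 2-cell replicate 1 (0.0735 and 0.0924), nor Fbxo43 without 1-cell replicate 2 (0.0895). Of 13 genes of the Rb and E2F families 9 were tested. E2f1, an activator of S phase genes, rose from 1-cell to 2-cell by 1.93 ± 0.69 (adjusted p = 0.0496), and Rb1, the retinoblastoma protein, fell from 13.8 and 14.1 TPM in 4-cell to 0.680 and 0.266 TPM in 8-cell embryos (-3.36, adjusted p = 0.0483). Of 17 other cyclins 15 were tested: Ccnjl rose by 3.39 ± 0.81 from 1-cell to 2-cell (adjusted p = 0.00756), and Ccno fell from 165 and 27.6 TPM in 2-cell to 6.02 and 4.33 in 4-cell embryos (-3.49, adjusted p = 0.0494). Ccnjl did not pass without 1-cell replicate 1 or 2 (adjusted p = 0.0525 and 0.0564). The calls of E2f1, Rb1 and Ccno lay at the threshold and were lost without most single libraries, with an adjusted p of up to 0.239 for E2f1 (without 1-cell replicate 2), 0.364 for Rb1 (without 8-cell replicate 2) and 0.341 for Ccno (without 4-cell replicate 2). After quantile normalization the changes from 1-cell to 2-cell kept their sign in all genes called in that step, but Cdk4 (adjusted p = 0.104), Ccnh (0.486), Cdkn1a (0.0610), Cdkn2b (0.0821), Wee1 (0.429), Fbxo31 (0.191) and E2f1 (0.0820) no longer passed. With the spread weighted by stage Cdk1 (adjusted p = 0.0978), Ccnh (0.198), Cdkn1a (0.110), Wee1 (0.0928), Fbxo43 (0.0568) and E2f1 (0.192) did not pass.

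The genes whose pattern was most like that of each cyclin were taken from 10015 annotated genes by Pearson's r of log2(TPM + 1) over the 12 oocyte and embryo libraries, as a description. The points share libraries and stages, and the 2-cell libraries weigh heavily in them. Nearest to Ccnb1 were Plrg1 (r = 0.949), Cenpe (r = 0.938), a mitotic kinesin, and Cks2 (r = 0.926), a subunit of cyclin-dependent kinases. Ccnb2 had Ndufa10 (r = 0.908) and Tsfm (r = 0.902), Ccna2 had Slc25a16 (r = 0.955), Ifrd1 (r = 0.955) and Mcph1 (r = 0.947), and Ccne1 had P4htm (r = 0.972), Irak3 (r = 0.967) and Pim1 (r = 0.964). Ccne2 had Ccser1 (r = 0.981), Cop1 (r = 0.960) and Bhlhe41 (r = 0.957). Of the D-type cyclins, Ccnd1 had Gm12612 (r = 0.961), Tor3a (r = 0.957) and Abhd8 (r = 0.950), Ccnd2 had Kcne3 (r = 0.983), Adm (r = 0.964) and Tagln (r = 0.961), and Ccnd3 had Slc25a39 (r = 0.947), Car2 (r = 0.931) and H2-K1 (r = 0.928). Among the cyclins themselves, r was highest between Ccnd1 and Ccne1 (0.849) and lowest between Ccnb1 and Ccnd3 (-0.860), and the B-type pair had r = -0.062.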

How the data were processed

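Long reads of 7 stages (1 pool each) and 14 short-read libraries (2 per stage) were analysed. The authors aligned long reads to mm10, collapsed them by stage and merged the stages, and made TPM values with salmon over the merged transcripts and over those of each stage, which they deposited. The submitters' processing notes name GSNAP, STAR, Cufflinks and Salmon. Samples were grouped by title, and the replicate numbers of the 8-cell libraries follow the titles.

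Merged transcripts were assigned to GENCODE vM21 genes by exon overlap on the same strand. TPM was tested with limma 3.58.1 (R 4.3.3; lmFit, contrasts.fit, eBayes with trend) on log2(TPM + 1), with the stage as the only term, for genes of at least 1 TPM in at least 2 libraries, adjusted by Benjamini-Hochberg over all genes. The test was tried on simulated data: with 1 spread for all stages false calls stayed near the threshold, and with a spread that differed by stage as here they exceeded it in the steps from and into the 2-cell stage, where the fit weighted by stage is given beside it. With 1 spread for all stages, 0 of 200 genes changed by 2 on the log2 scale were recovered in the steps from the oocyte, the 1-cell and the 2-cell stage. Of 200 genes changed by 4, 118 to 125 were recovered there. A step without a call may therefore hold a change. Promoter windows of Ccna1, Ccnb1, Ccnb2, Ccnd3 and Ccne1 were matched by symbol (5 of 9 members), and Ccna2, Ccnd1, Ccnd2 and Ccne2 had none. The members and gene lists were chosen with earlier results of these data known. All 9 cyclins are named, then up to 2 rising and 2 falling genes per list and transition, those of greatest change among the called, and the 3 genes most like each cyclin, of which 1 is not reported here. Alternatives were a pseudocount of 0.1, no filter or 5 TPM, quantile normalization, the 4 libraries of a comparison, a spread weighted by stage, a replicate block, each library left out, other assignment of transcripts and TPM over the stage's own transcripts. Leaving out both 2-cell libraries was added after seeing the data. Python 3.11.15, numpy 2.4.6 and pandas 2.3.3 were used.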

Additional observations from a re-analysis of the deposited data

How the results depend on the processing

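Of the 3 cyclin genes called from 1-cell to 2-cell, 0 were called on the 4 libraries of that step and 1 (Ccne1) with the spread weighted by stage, and 2 to 4 with a library left out. From 2-cell to 4-cell, where none was called, 2 were called with TPM over the stage's own transcripts and 0 to 1 with a library left out; from 4-cell to 8-cell it was 1 (Ccnb1) on 4 libraries, 2 (Ccnd3 and Ccne2) with the weighted spread and 1 over the stage's own transcripts. Between oocyte and blastocyst, 0 were called on 4 libraries or with the weighted spread, 3 over the stage's own transcripts and 0 to 1 with a library left out. Of 5 cyclins that differed over 6 stages, 3 were called without a filter, 2 with the replicate block and 2 to 7 with a library left out. Of 5 between sperm and oocyte, 3 were called on 4 libraries and 4 to 6 with a library left out. Of 6 transcripts, 1 was called on 4 libraries, 3 with the replicate block, 1 without both 2-cell libraries, which leaves 3 transitions, and 2 to 9 with a library left out, and of the 0 leading transcripts, 1 (Ccne1, 4-cell to 8-cell) with the weighted spread. Beside these counts, 4711 of 12693 genes were called from 2-cell to 4-cell over the stage's own transcripts. From 4-cell to 8-cell it was 3307 of 13468 on 4 libraries and 4604 with the weighted spread. Over the stage's own transcripts it was 3981 of 12693. Between oocyte and blastocyst these settings gave 4331, 5628 and 6494, and between sperm and oocyte 4635 of 14400 were called on 4 libraries. The cause of the differences between settings was not tested. TPM over the stage's own transcripts lists a gene at 0 in a stage without a model, so that its calls can show the model set; there, the geometric mean of the Ccnb1 to Ccnb2 ratio was 3.24 in 1-cell, 10.6 in 4-cell and 6.24 in 8-cell embryos, that of the Ccne1 to Ccna2 ratio 1.70, 0.760, 1.03 and 0.458 from 2-cell embryos to blastocysts, and Fbxo43 turned to +3.58 from 1-cell to 2-cell. The other listed alternatives, namely the pseudocount, the filter at 5 TPM, quantile normalization and transcripts counted for each gene, kept these counts within 1.5 times.

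Over all genes, 4029 were called from 1-cell to 2-cell, 0 on 4 libraries, 1873 with the weighted spread and 1896 to 4912 with a library left out. After quantile normalization 45.6% of the calls of that step were higher, against 84.7% before. Deviations of same-numbered libraries correlated between -0.494 and 0.442 over pairs of stages. The replicate numbers thus gave no pairing that held over all stages. Batches may be numbered differently between stages, so this check does not settle whether they were shared. With the replicate block the 3 genes called from 1-cell to 2-cell and the 1 between oocyte and blastocyst passed again. The adjusted p in that limma fit was 0.0481 for Ccnb2 and 0.0489 for Ccnd3. TPM keeps no depth and the read totals listed in the paper were not used, so no counting error is given for low levels such as those of Ccnd1 and Ccnd2.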
